A study of Homo sapiens with 2 samples.

Results

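Galanin-high cells are the SH-SY5Y cells in which transcripts of GAL, the gene of the neuropeptide galanin, took at least 20 of every 10,000 Unique Molecular Identifiers (UMI, 1 count for each captured RNA molecule). The rule selected 245 of 1920 kept cells, out of 2879 cell barcodes in the deposited count table. SH-SY5Y (SY5Y) is a human neuroblastoma line, a tumor line of the sympathetic nervous system grown as an adherent culture, and it was studied here untreated. A single culture was divided between 2 flasks, called SplitA and SplitB, whose cells were marked with a hashtag antibody each, pooled and sequenced as 1 single-cell library. Cells were left to cycle freely, and every cell cycle phase was present in both flasks. The flasks therefore share their parent culture and their library, and a spread between them measures little more than handling and counting. No barcode occurred more than once. Both flasks hold cells of 1 line, so neither is a control for the other, and each comparison set the galanin-high cells of a flask against the other cells of that flask.

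Galanin is made as a precursor, cut by prohormone convertases and stored in dense-core vesicles together with granins such as chromogranin A (CHGA), chromogranin B (CHGB) and secretogranin II (SCG2), from which it is released on stimulation. It acts through the receptors GALR1, GALR2 and GALR3. In sympathetic neuroblasts and in neuroblastoma, it is produced alongside the machinery for noradrenaline, and the adrenergic identity of such cells is kept by a set of transcription factors that includes HAND2 and GATA3.

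SplitA gave 829 kept cells, 92 of them galanin-high, which is 11.1% of the flask (exact 95% binomial interval 9.04 to 13.4%). SplitB gave 1091 kept cells, 153 of them galanin-high, or 14.02% (12.02 to 16.2%). These intervals and all others below cover counting error only. The galanin-high cells had a median of 42.1 GAL UMIs per 10,000 in SplitA, with the middle part of the cells between 29.9 and 69.0 and a highest cell at 397. In SplitB the median was 38.4, with quartiles at 27.7 and 65.4 and a highest cell at 267. The other cells had a median of 3.60 in SplitA and 4.11 in SplitB. The galanin-high cells carried 61.6% of all GAL UMIs of SplitA and 66.5% of those of SplitB.

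Levels of GAL formed a continuous range with no gap at the limit. In SplitA the 5 lowest galanin-high cells lay between 20.1 and 20.7 and the 5 highest other cells between 18.9 and 19.4. In SplitB the 5 cells just inside lay between 20.5 and 20.9, and the 5 just outside between 19.65 and 19.96. Of the other cells, 114 in SplitA and 141 in SplitB held no GAL UMI. The level was mostly found again in UMIs that had not been used to choose the cells. When each cell's UMIs were divided at random into 2 equal parts and cells were chosen on the first part, the second part still held GAL at 5457 UMIs per 1000000 (counts per 1000000, CPM) in SplitA and 4907 in SplitB, against 525 and 568 in the cells not chosen. Of those chosen on the first part, 70.6% in SplitA and 83.7% in SplitB again reached the limit in the second part. Summed over cells, GAL stood at 6246 CPM in the galanin-high cells and 537 in the other cells of SplitA, and at 5230 and 543 in SplitB. These GAL values follow from the rule and were not tested.

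**Figure D1:**
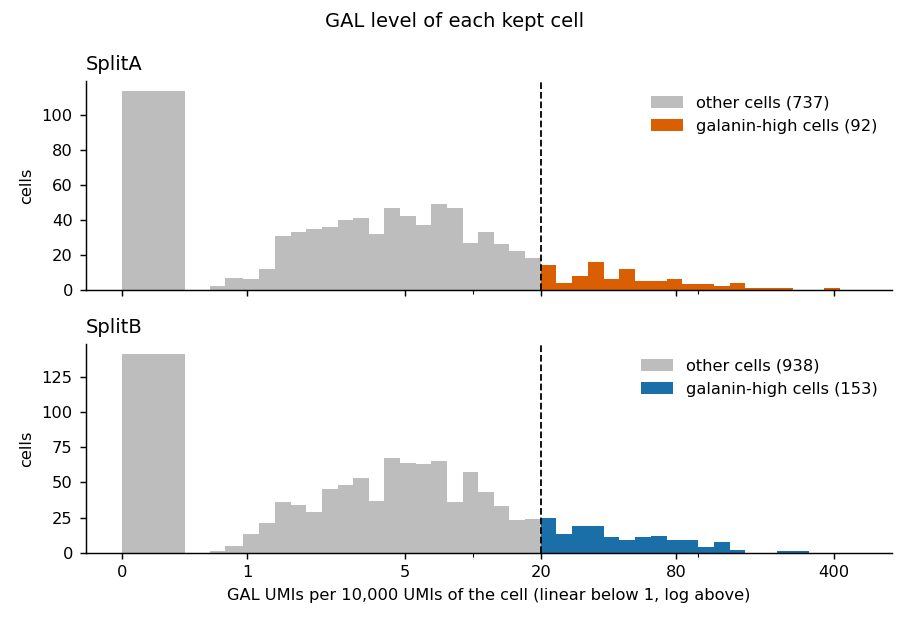
GAL UMIs per 10,000 UMIs of each kept cell (x axis, linear below 1 and logarithmic above) against the number of cells (y axis) in SplitA and SplitB, with galanin-high cells in color, other cells in grey and a dashed line at the limit of 20. The distribution runs through the limit without a gap in both flasks, and the tallest bar is the 114 and 141 cells with no GAL UMI.

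Galanin-high cells were slightly richer in RNA than the other cells of their flask. Without GAL, their median was 6501 UMIs against 6312 in SplitA and 7232 against 6529 in SplitB, ratios of 1.03 and 1.11. They gave a median of 2031 detected genes against 1878 in SplitA, and 2073 against 1916 in SplitB. After every cell was thinned to 2000 UMIs, the medians were 886 against 854 genes and 883 against 853. Mitochondrial transcripts took a median of 8.40% of UMIs in the galanin-high and 8.49% in the other cells of SplitA, and 8.44% and 8.62% in SplitB. Cells above the 95th percentile of UMIs made up 8.70% of galanin-high and 4.61% of other cells in SplitA, and 16.3% and 3.20% in SplitB. Such cells could be 2 cells of the same flask under 1 barcode, which the hashtags cannot show, and no doublet caller was run. Without these cells the ratio of UMIs was 1.01 as a mean of the flasks.

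Hashtag counts assigned each cell to a flask, through a ratio and an upper limit on the other hashtag, but were no part of the GAL limit that divides the cells of a flask. Among cells that passed those limits, the median count of a cell's own hashtag was 1636 in the galanin-high and 1022 in the other cells of SplitA, and 1601 and 1024 in SplitB, ratios of 1.60 and 1.56. Per UMI of RNA, the ratios were 1.38 in both flasks. Across cells of SplitB with 20 to under 40, 40 to under 80 and 80 or more GAL UMIs per 10,000, the median was 1492, 1900 and 1546, so that the highest was not at the top of the GAL range. Hashtag antibodies of this kind bind CD298 and the B2M protein at the cell surface. B2M RNA, looked up after the hashtag values were seen, stood at 393 against 248 CPM in SplitA and at 317 against 240 in SplitB (log2 fold change 0.43, adjusted p = 5.53e-07 by edgeR). ATP1B3, the gene of CD298 and looked up likewise, had a log2 fold change of 0.26 (adjusted p = 0.275). Whether surface antigen or cell size set the hashtag counts was not tested.

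Gene expression was compared on 4 sums of UMIs, galanin-high and other cells in each flask. Without GAL these held 679675 and 4953940 UMIs in SplitA and 1310902 and 6402865 in SplitB. Of 10916 genes with enough UMIs to test, 702 were higher in galanin-high cells (6.43% of genes tested, DLK1 and S100A6 among them) and 649 were lower (5.95%) at an adjusted p under 0.05 in edgeR's quasi-likelihood test with the flask as a block. The median log2 fold change of all genes tested was 0.00. Of the calls, 52.0% were higher, and 68.9% without TMM factors. With 2 flasks the fit has 1 residual degree of freedom and leans on the spread shared across genes. DESeq2 called 129 genes higher (1.18%) and 118 lower (1.08%), every one of them also called by edgeR. limma-voom called 7.99% of genes higher and 5.26% lower. In edgeR fits of fewer cells or UMIs the shares higher and lower were 3.94% and 4.32% among cells in G1, 5.51% and 4.74% with other cells matched on UMIs, and 4.35% and 4.37% with cells chosen on 50% of their UMIs and tested on the rest. By size alone, with no test, 833 genes (7.63%) were at least 1.5-fold higher in both flasks and 403 (3.69%) were at least 1.5-fold lower in both.

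**Figure D2:**
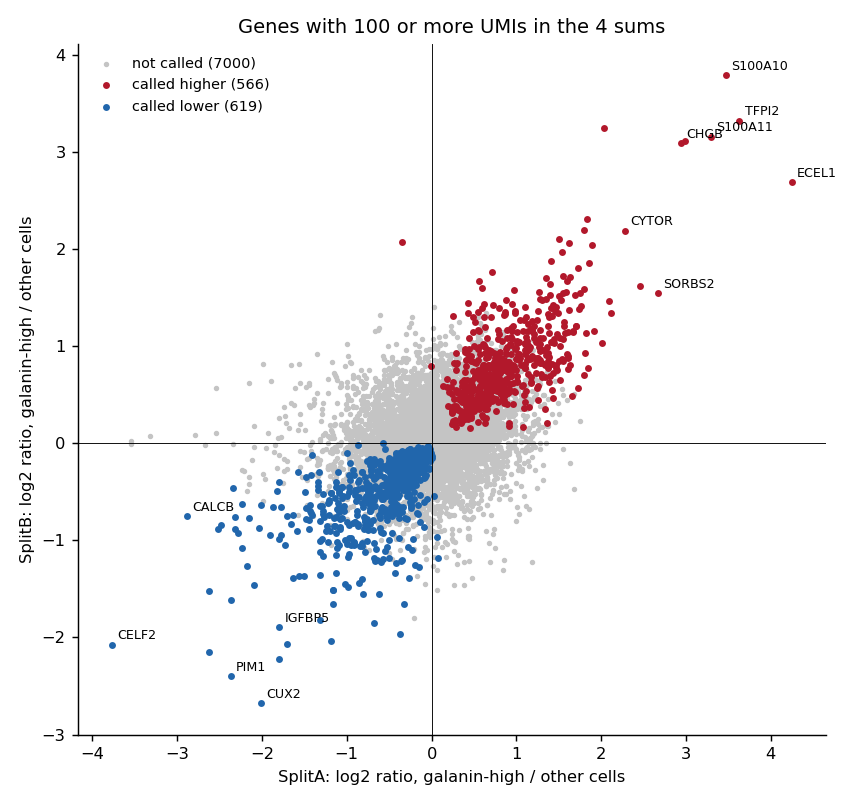
Log2 ratio of galanin-high to other cells in SplitA (x axis) and SplitB (y axis) for the genes with 100 or more UMIs in the 4 sums, with genes called higher in red, genes called lower in blue and the rest in grey. S100A10, TFPI2, S100A11 and CHGB lie near 3 or above on both axes, while CELF2, PIM1 and CUX2 lie at or below -2.

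DLK1 and S100A6, which had been put forward as markers from these same data, had higher levels in galanin-high cells of both flasks and are described without a test. Both were in the fit across all genes, but they are left out of the counts given for their lists. DLK1, a membrane protein of the Notch ligand family that neuroblasts and other immature cells carry, stood at 6662 CPM in galanin-high against 1995 in other cells of SplitA, and at 5382 against 2065 in SplitB. Its ratio was 3.34 (exact 95% interval 3.22 to 3.46) in SplitA and 2.61 (2.53 to 2.68) in SplitB, so that the flasks differed in size but not in direction. S100A6, a small calcium-binding protein, stood at 830 against 229 CPM in SplitA and at 803 against 222 in SplitB, ratios of 3.63 and 3.62. DLK1 was present in nearly all cells of both kinds. After thinning to 2000 UMIs, it was seen in 100% of galanin-high and 84.9% of other cells in SplitA and in 99.3% and 82.5% in SplitB (before thinning 100%, 96.6%, 99.3% and 96.2%).

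Many granins and enzymes that process prohormones were higher in galanin-high cells. Of 22 genes in this list, 18 could be tested, of which 10 rose, 1 fell and 7 did not pass, with a median log2 fold change of 0.65. CHGB, a core protein of dense-core vesicles (GRCh38 chr20:5911510-5925353), stood at 790 CPM in galanin-high and 103 in other cells of SplitA, and at 635 and 74.5 in SplitB. Galanin-high cells were thus higher by 7.66-fold (6.77 to 8.66) and 8.53-fold (7.61 to 9.57), with intervals that overlap (log2 fold change 2.94, DESeq2 adjusted p = 2.65e-119). CHGA, the other chromogranin, stood at 864 against 314 CPM in SplitA and 709 against 268 in SplitB (log2 fold change 1.35, adjusted p = 4.74e-100). SCG2, the precursor of secretoneurin, stood at 88.3 against 30.3 and 90.0 against 30.9 (log2 fold change 1.46, adjusted p = 2.49e-19).

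VGF, a secreted neuropeptide precursor that growth factors induce, stood at 500 against 164 CPM in SplitA and 435 against 236 in SplitB. Its ratio was 3.04 (2.67 to 3.46) in SplitA and 1.84 (1.67 to 2.03) in SplitB, so the flasks disagreed on its size beyond counting error (log2 fold change 1.09, adjusted p = 5.77e-48). PTPRN, a membrane protein of secretory granules, rose by a log2 fold change of 1.26 and SYT1, a calcium sensor of vesicle release, by 0.73. Among the enzymes that finish neuropeptides, PAM (amidation of the peptide end) rose by 0.85, CPD by 0.72 and CPE, both carboxypeptidases, by 0.58. SCG5, the chaperone of a prohormone convertase, rose by 1.80 on only 36 UMIs in all. SYT4, another synaptotagmin, fell by 0.66 on the log2 scale; its ratio was 0.92 (0.61 to 1.35) in SplitA and 0.54 (0.38 to 0.76) in SplitB. The granin SCG3 had a log2 fold change of -0.10 (adjusted p = 0.625) and PCSK1N, the precursor of a convertase inhibitor, one of 0.16 (adjusted p = 0.184). PCSK1, a convertase of neuroendocrine cells, had no UMI in any of the 4 sums, and PCSK2 had 5. DESeq2 called CHGB, CHGA, SCG2, VGF, PTPRN and SYT1 of this list, and gave no call for PAM, CPE, CPD, SCG5 or SYT4.

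Among 7 other neuropeptide genes that could be tested, 3 rose and 1 fell, while 6.43% of all genes tested were higher and 5.95% lower. NPY, neuropeptide Y, stood at 506 against 313 CPM in SplitA and 700 against 367 in SplitB (log2 fold change 0.75, adjusted p = 2.33e-29). NMB, neuromedin B, rose by 0.73 and CARTPT, the precursor of the CART peptides, by 1.26. CALCB, a calcitonin gene-related peptide, was lower at 2.94 against 27.0 CPM in SplitA and 12.2 against 21.1 in SplitB (log2 fold change -1.45, adjusted p = 0.000111). This call was lost among G1 cells (adjusted p = 0.05496) and with cells chosen on 50% of their UMIs (adjusted p = 0.0599), as was that of CARTPT (adjusted p = 0.225 and 0.149), and DESeq2 gave neither gene an adjusted p. The receptors of galanin were at the edge of detection. GALR1 and GALR3 had no UMI in any sum, where 3 counts would be 4.41 CPM in the galanin-high cells of SplitA and 2.29 in those of SplitB, and GALR2 had 1 UMI, in another cell of SplitB.

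Of the list of granins and processing enzymes, 19 genes had an entry in the RefSeq promoter table (GRCh38.p14, 250 bases before to 50 after the start of each gene), 8 of them among those called higher. The cAMP response element TGACGTCA, which reads the same on both strands, was in the promoters of CHGA and VGF, called higher, and of PCSK1, which was not tested. It occurs in 649 of all 35116 promoters of the table, or 1.85%. The stretches around it are printed because galanin-high cells were higher in the RNA of both genes, with the element in capitals.
CHGA, chr14:92923070-92923129, plus strand: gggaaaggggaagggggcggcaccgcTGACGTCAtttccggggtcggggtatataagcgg
VGF, chr7:101165615-101165674, minus strand: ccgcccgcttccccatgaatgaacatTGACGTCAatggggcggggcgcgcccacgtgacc
In CHGA the element starts 54 bases before the gene, and in VGF 79 bases before it. A match of letters is a description and not a site of binding. GAL and CHGB are not among the entries.

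Many genes that make, load and break down catecholamines were also higher. Of 17 genes, 13 could be tested, 8 rose and none fell, with a median log2 fold change of 0.90. DDC, which makes dopamine from L-DOPA, stood at 216 against 82.6 CPM in SplitA and 257 against 82.3 in SplitB (log2 fold change 1.46, adjusted p = 2.75e-49). DBH, which turns dopamine into noradrenaline inside the vesicle, stood at 550 against 297 and at 572 against 256 (log2 fold change 0.97, adjusted p = 1.25e-44). CYB561, which supplies the electrons that DBH uses, stood at 396 against 209 and at 369 against 182 (log2 fold change 0.90, adjusted p = 1.87e-29). TH, the enzyme of the first step, had 18 UMIs in all, 3 and 6 in the galanin-high and other cells of SplitA and 6 and 3 in those of SplitB. Its ratio was 3.64 (0.59 to 17.1) in SplitA and 9.77 (2.09 to 60.4) in SplitB, with an adjusted p of 0.0111 by edgeR. The RNA of the first enzyme was thus close to the limit of detection in cells of both kinds. DESeq2 called 5 of the 8 genes that rose, DDC, DBH, CYB561, QDPR and SLC18A1, and gave TH no adjusted p. With cells chosen on 50% of their UMIs the same 5 were called, of 11 tested.

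**Figure D3:**
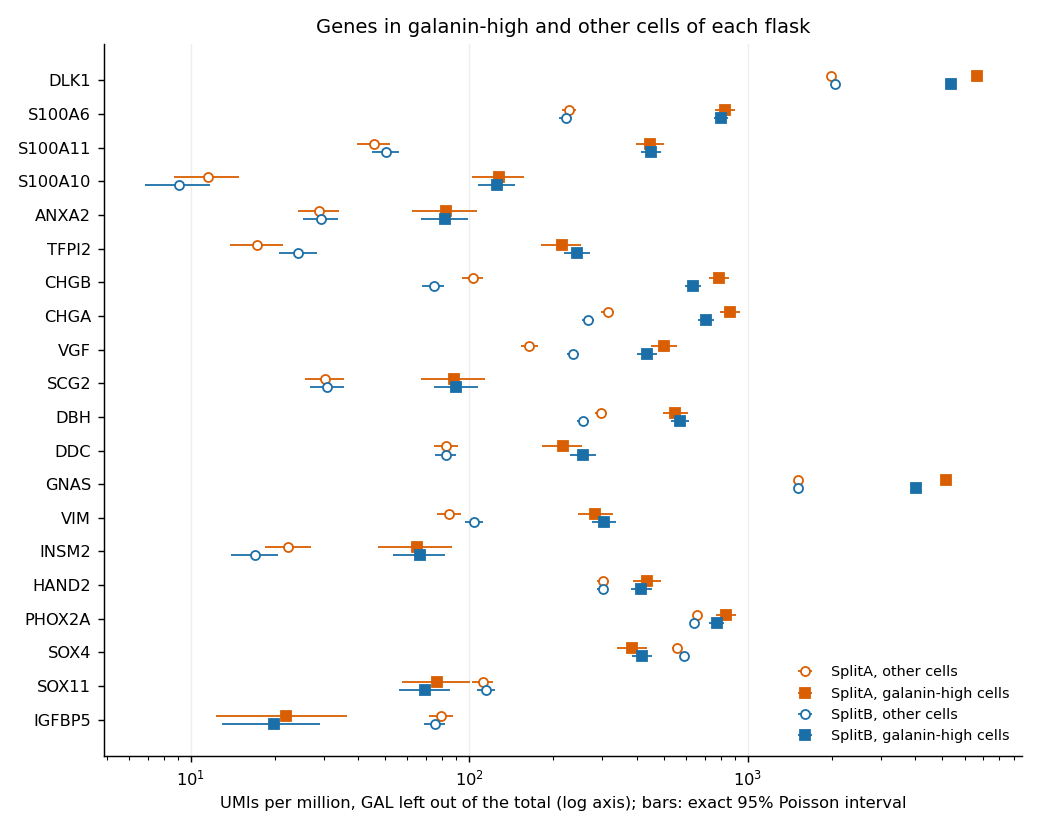
CPM with GAL left out of the total (x axis, logarithmic) of 20 genes in galanin-high cells (filled squares) and other cells (open circles) of SplitA and SplitB, with exact 95% Poisson intervals. Squares lie to the right of circles from DLK1 down to PHOX2A and to the left for SOX4, SOX11 and IGFBP5, in both flasks.

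Adrenergic transcription factors did not follow the catecholamine genes. Of 25 in the list, 22 could be tested, 3 rose, 9 fell and 10 did not pass, with a median log2 fold change of -0.23. Shares over all genes tested were 6.43% higher and 5.95% lower. INSM2, a zinc finger factor of neuroendocrine cells, stood at 64.7 against 22.4 CPM in SplitA and at 66.4 against 17.0 in SplitB (log2 fold change 1.70, adjusted p = 1.91e-18). HAND2 rose by 0.40 and PHOX2A by 0.22, and both drive the sympathetic lineage. SOX4 stood at 384 against 557 and at 417 against 590 (log2 fold change -0.60, adjusted p = 5.36e-17). SOX11, which like SOX4 marks immature neurons, stood at 76.5 against 112 and at 69.4 against 115 (log2 fold change -0.75, adjusted p = 2.37e-07). TBX3, SATB1, MEIS1, MEIS2, TFAP2B and GATA2 were also lower, with log2 fold changes from -1.17 for MEIS1 to -0.21 for GATA2. GATA3, ISL1 and HAND1 did not pass, with log2 fold changes of -0.12, -0.26 and -0.07. DESeq2 called INSM2, HAND2, SOX4 and TBX3 among the genes named.

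The S100 genes held some of the highest ratios. Of 19 S100 and annexin genes other than S100A6, 13 could be tested, 7 rose and none fell, with a median log2 fold change of 1.37 (1.39 with S100A6). S100A10, the partner of annexin A2 at the membrane, stood at 128 against 11.5 CPM in SplitA and at 126 against 9.06 in SplitB, ratios of 11.1 (7.88 to 15.8) and 13.9 (10.2 to 19.1) (log2 fold change 3.57, adjusted p = 3.80e-95). S100A11, another calcium-binding partner of annexins, stood at 446 against 45.4 and at 449 against 50.3 (log2 fold change 3.13, adjusted p = 2.69e-252). ANXA2, annexin A2 itself, stood at 82.4 against 28.9 and at 81.6 against 29.4 (log2 fold change 1.41, adjusted p = 1.13e-16). S100A16, S100A13, S100A2 and S100B rose by 3.10, 1.93, 1.37 and 1.46, S100A16 on 53 UMIs in all, S100A2 on 50 and S100B on 54. S100A4 had a log2 fold change of 0.40 (adjusted p = 0.336). DESeq2 called S100A10, S100A11 and ANXA2.

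S100A6 and all S100 genes that rose, except S100B on chromosome 21, lie on the long arm of chromosome 1 in GRCh38. S100A10 spans chr1:151982915-151993859, S100A11 chr1:152032506-152047907 and S100A6 chr1:153534599-153536244, with S100A2, S100A16 and S100A13 further along. S100A4, which did not pass, sits between S100A6 and S100A2 at chr1:153543613-153550136.

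A UMI of these genes was captured in part of the galanin-high cells, and cells without one may still express the gene. After thinning to 2000 UMIs, S100A11 was seen in 46 of 92 galanin-high cells (39.4 to 60.6%) and 5.16% of other cells in SplitA, and in 39.2% (31.4 to 47.4%) and 5.34% in SplitB. Before thinning the shares were 69.6% and 10.2% in SplitA and 65.4% and 10.7% in SplitB. CHGB was seen after thinning in 55.4% against 11.1% of cells in SplitA and 49.7% against 11.2% in SplitB (before thinning 77.2% against 27.0%, and 71.2% against 29.0%). TFPI2, an inhibitor of serine proteases in the matrix, was seen in 23 of 92 cells against 2.71% in SplitA and 29.4% against 3.52% in SplitB (before thinning 45.7% against 8.28%, and 51.6% against 9.59%). The culture holds no cell type that should lack these genes, so the part of free RNA in the low shares was not measured.

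Outside the lists, TFPI2 was among the genes with the highest fold change. It stood at 215 against 17.4 CPM in SplitA and at 244 against 24.4 in SplitB (log2 fold change 3.35, adjusted p = 4.80e-158). ECEL1, a membrane protease of neural cells, stood at 47.1 against 2.42 and at 40.4 against 6.25, ratios of 19.4 (9.75 to 41.4) and 6.47 (4.21 to 10.0) (log2 fold change 3.11, adjusted p = 4.47e-27). MXRA8, a cell surface protein, rose by 2.98 and the scavenger receptor gene CD163L1 by 2.66. The cytokine TGFB1 rose by 2.02, RRAS, a small GTPase, by 1.78, the prostaglandin receptor gene PTGER2 by 1.67 and the potassium channel gene KCNJ8 by 1.58. Others of the 20 highest were the long non-coding RNAs CYTOR (2.14) and MIR4435-2HG (1.89), which share much of their sequence so that reads could be divided between them, and SORBS2 (1.97), TENT5A (1.82), BAALC (1.77) and TGFBR3L (1.58).

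The 12 genes with the lowest fold change had few UMIs left in galanin-high cells. IGFBP5, a secreted binding protein of insulin-like growth factors, had the most UMIs of them and stood at 22.1 against 79.3 CPM in SplitA and 19.8 against 75.1 in SplitB (log2 fold change -1.98, adjusted p = 7.25e-22). PDGFRA, a receptor of platelet-derived growth factor, had 1 UMI in the galanin-high cells of SplitA and 7 in those of SplitB, ratios of 0.11 (0.0027 to 0.63) and 0.33 (0.13 to 0.70) (log2 fold change -2.02, adjusted p = 0.000109). CUX2, a homeobox factor of neurons, had 2 and 3 UMIs, ratios of 0.20 (0.024 to 0.75) and 0.13 (0.027 to 0.40). LMO4, a partner of LIM factors, had 1 and 4 UMIs, ratios of 0.11 (0.0027 to 0.63) and 0.20 (0.054 to 0.53). CELF2, an RNA-binding protein, had 0 UMIs against 49 in SplitA, and 2 against 51 in SplitB. The others were PIM1, KNL1, PRKX, CHRM2, KIF15, MAN2A2 and PIF1, of which KNL1, KIF15 and PIF1 act in dividing cells.

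Several imprinted genes, for which 1 parental copy can be read in preference to the other, were higher. Of 21 on the list other than DLK1, 10 could be tested, 6 rose and 1 fell, with a median log2 fold change of 0.63 (0.71 with DLK1). Among all genes tested, 6.43% were higher and 5.95% lower. Of the 6, DESeq2 called 4, and edgeR among G1 cells called 4, of 9 tested. DESeq2 called 0 of the list lower. GNAS, which codes for the G protein subunit that activates adenylyl cyclase and also for a granin-like protein of secretory granules, stood at 5136 against 1519 CPM in SplitA and at 4029 against 1514 in SplitB. Its ratio was 3.38 (3.25 to 3.52) in SplitA and 2.66 (2.57 to 2.75) in SplitB (log2 fold change 1.499, adjusted p = 2.16e-234). Counts per gene do not tell the transcripts of this locus apart. CDKN1C, an inhibitor of cyclin-dependent kinases, stood at 160 against 59.5 and at 114 against 69.0 (log2 fold change 0.93, adjusted p = 7.46e-13).

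Defining genes of other cell types were scarce, and some mesenchymal genes moved in the galanin-high cells. Of 26 mesenchymal genes, 9 could be tested, 2 rose and 1 fell, while 6.43% of all genes tested were higher and 5.95% lower. The median log2 fold change of the list was 0.56, and -0.03 with cells chosen on 50% of their UMIs. VIM, vimentin, stood at 284 against 84.6 CPM in SplitA and 304 against 104 in SplitB (log2 fold change 1.54, adjusted p = 6.15e-63). LGALS1, galectin-1, with the most UMIs of the list, stood at 2614 against 1479 and at 2684 against 1459 (log2 fold change 0.77, adjusted p = 3.41e-59). TWIST1, a factor of neural crest and mesenchyme, fell by 0.42 on the log2 scale, a call that DESeq2 did not make (adjusted p = 0.274). The list summed to 3107 against 1804 CPM in SplitA and 3212 against 1804 in SplitB, most of it LGALS1 in cells of both kinds. The defining genes PRRX1 and COL1A2 had no UMI at all, and COL1A1 had 24. Of 10 genes of Schwann cell precursors, 3 could be tested and 1, S100B, rose. That call was not made by DESeq2, which gave S100B no adjusted p, and S100B had too few UMIs to be tested among G1 cells, with matched cells or with cells chosen on 50% of their UMIs. SOX10, FOXD3 and CDH19 had no UMI, and the list summed to 73.6 against 56.7 CPM in SplitA and 75.5 against 51.7 in SplitB, most of it MPZL1, which many cells express. None of 9 immune and endothelial genes had a UMI.

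**Figure D4:**
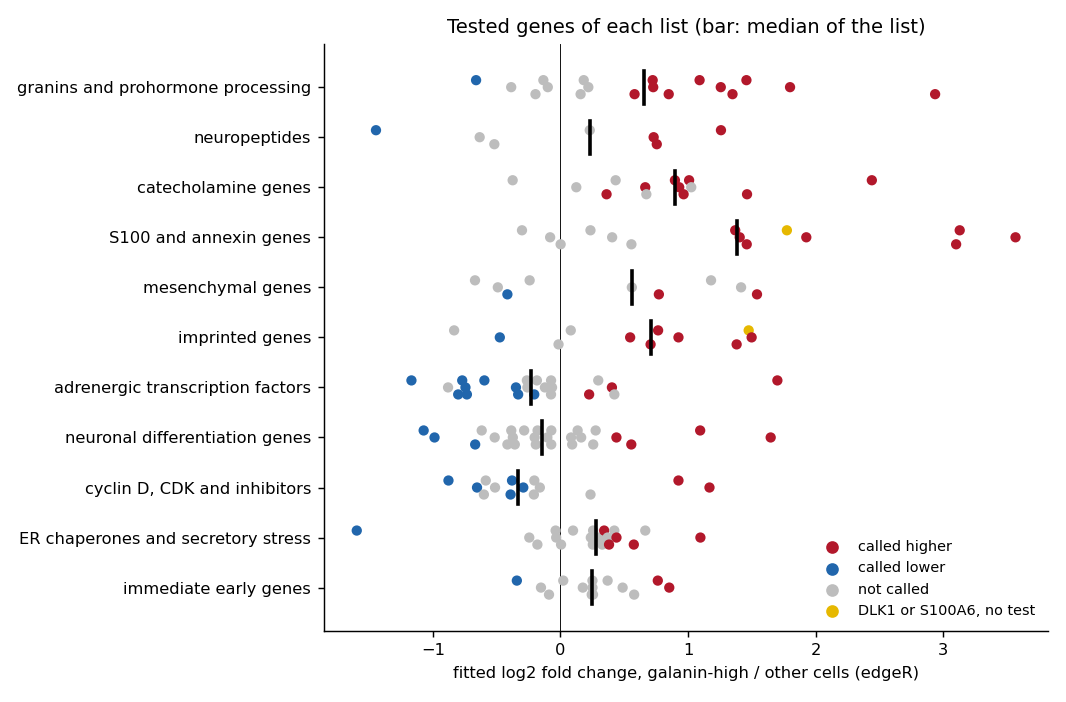
Fitted log2 fold change of galanin-high over other cells (x axis) for each tested gene of 11 gene lists, in red where called higher, blue where called lower and grey otherwise, with DLK1 and S100A6 in yellow and a black bar at the median of the list, these 2 included. The median lies above 0 for the catecholamine, S100 and granin lists (0.90, 1.39 and 0.65) and below 0 for the adrenergic transcription factors (-0.23).

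Transcripts of dividing cells were lower. Of 54 genes of the G2 and M phases all could be tested, and 34 fell and none rose, with a median log2 fold change of -0.73. The list summed to 2781 against 4522 CPM in SplitA and 2978 against 4389 in SplitB. HMGB2, a chromatin protein of dividing cells, stood at 471 against 894 and at 493 against 873 (log2 fold change -0.95, adjusted p = 1.37e-50). AURKA, a kinase of the mitotic spindle, had a log2 fold change of -1.55 (adjusted p = 0.000251). Of 43 genes of S phase, 41 could be tested, 9 fell and none rose, with a median of -0.39. DESeq2 called 10 of the G2 and M genes lower and gave 29 no adjusted p. Of the S phase genes DESeq2 called 0, with 4 lower at an unadjusted p under 0.05, and gave no adjusted p to 2 of the 9 that edgeR called, while limma-voom called 6. Among G1 cells edgeR called 0 of 31 S phase genes tested, with 2 lower at an unadjusted p under 0.05. The phase call itself uses these genes, so the fit among G1 cells cannot check the 9 calls. TYMS and MCM7, which serve DNA synthesis, did not pass, with log2 fold changes of -0.28 and -0.25.

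Fewer galanin-high cells were assigned to G2 or M phase. With cells thinned to 2000 UMIs, 68.5% of the galanin-high cells of SplitA were in G1 (58.0 to 77.8%) against 41.7% of the others (38.1 to 45.3%). In SplitB the shares were 62.1% (53.9 to 69.8%) and 41.3% (38.1 to 44.5%). For G2 and M phase the shares were 9.78% against 26.2% in SplitA and 9.80% against 26.1% in SplitB, and for S phase 21.7% against 32.2% and 28.1% against 32.6%. Without thinning, the G1 shares were 66.3% against 38.5% in SplitA and 63.4% against 39.0% in SplitB. Those of G2 and M phase were then 15.2% against 28.9% in SplitA and 14.4% against 30.7% in SplitB. The thinning left out 1 cell, in SplitB and not galanin-high. The mean difference over the flasks was 23.8 percentage points, and with 2 flasks no exact test could pass 0.05, the smallest two-sided p being 0.5. Phase calls rest on expression alone. Within the galanin-high cells, the median GAL level was 46.3 UMIs per 10,000 in G1, 34.7 in S and 48.3 in G2 and M in SplitA, and 42.3, 33.1 and 43.1 in SplitB. Among cells in G1 alone, the median of the G2 and M genes was 0.04, as fixed by the choice of phase, while 8 of 16 tested granin and processing genes, 5 of 12 S100 and annexin genes other than S100A6 and 5 of 12 catecholamine genes were called higher, against 331 of 8401 genes tested (3.94%) in that fit. All of these were among the genes called higher in the fit with every phase.

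Of 14 tested cyclins, cyclin-dependent kinases and inhibitors of the G1 phase, 2 rose and 5 fell, with inhibitors in both directions. The shares over all genes tested were 6.43% higher and 5.95% lower. CDKN1A, the p53-induced inhibitor p21, stood at 50.02 against 21.4 CPM in SplitA and 57.2 against 23.7 in SplitB (log2 fold change 1.17, adjusted p = 2.45e-08). CDKN1C was the other that rose. The inhibitors CDKN2C and CDKN1B fell by 0.88 (adjusted p = 5.85e-08) and 0.65 (adjusted p = 0.0425) on the log2 scale. CCND1, cyclin D1, stood at 587 against 721 and at 541 against 665 (log2 fold change -0.38, adjusted p = 2.58e-08), its partner CDK6 fell by 0.29 on the log2 scale, and E2F1, a factor that drives S phase genes, by 0.39. DESeq2 called CDKN1A, CDKN1C, CCND1 and CDKN2C of this list, as did edgeR among G1 cells, and CDKN1B, CDK6 and E2F1 were called in neither (DESeq2 adjusted p = 0.697, 0.512 and 0.521).

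Levels of several genes followed GAL on both sides of the limit, though not in every step. In cells with no GAL UMI, with over 0 to under 5, 5 to under 10 and 10 to under 20 per 10,000, DLK1 of SplitA stood at 1470, 1537, 2205 and 3338 CPM, and above the limit, in cells with 20 to under 40, 40 to under 80 and 80 or more, it stood at 5703, 7156 and 8108. In SplitB it stood at 1696, 1540, 2211 and 3479 below the limit and at 4524, 6195 and 6618 above it, so that cells with no GAL UMI were not the lowest. S100A11 of SplitA ran from 8.36 in cells with no GAL UMI to 139 in the bin below the limit and 884 in the highest bin, which holds 18 cells. In SplitB it ran from 20.4 to 131 and 864. CHGA of SplitB was highest at 40 to under 80, with 839 CPM, and lower above it, at 686. VGF of SplitB stood at 495 CPM in cells with no GAL UMI, 172 in the next bin, 291 in the bin below the limit, 376 at 40 to under 80 and 554 in the highest, while in SplitA it ran from 157 to 229 and 828. CDKN1A did not follow GAL over the whole range. In SplitA it peaked at 20 to under 40, with 70.2 CPM, and stood at 23.9 in the highest bin, and in SplitB it peaked at 40 to under 80, with 94.7, and stood at 33.1 in the highest. SOX4 ran the other way, from 570 in cells with no GAL UMI to 255 in the highest bin of SplitA and from 604 to 372 in SplitB. IGFBP5 had no UMI in the highest bin of SplitA and 8.27 CPM in that of SplitB, against 115 and 102 in cells with no GAL UMI. The share of G1 cells was lowest at middling GAL, 36.8% at 5 to under 10 in SplitA and 36.9% at over 0 to under 5 in SplitB, and the cells with no GAL UMI, whose median UMIs were lowest at 5037 and 5394, had 49.1% and 47.1%.

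**Figure D5:**
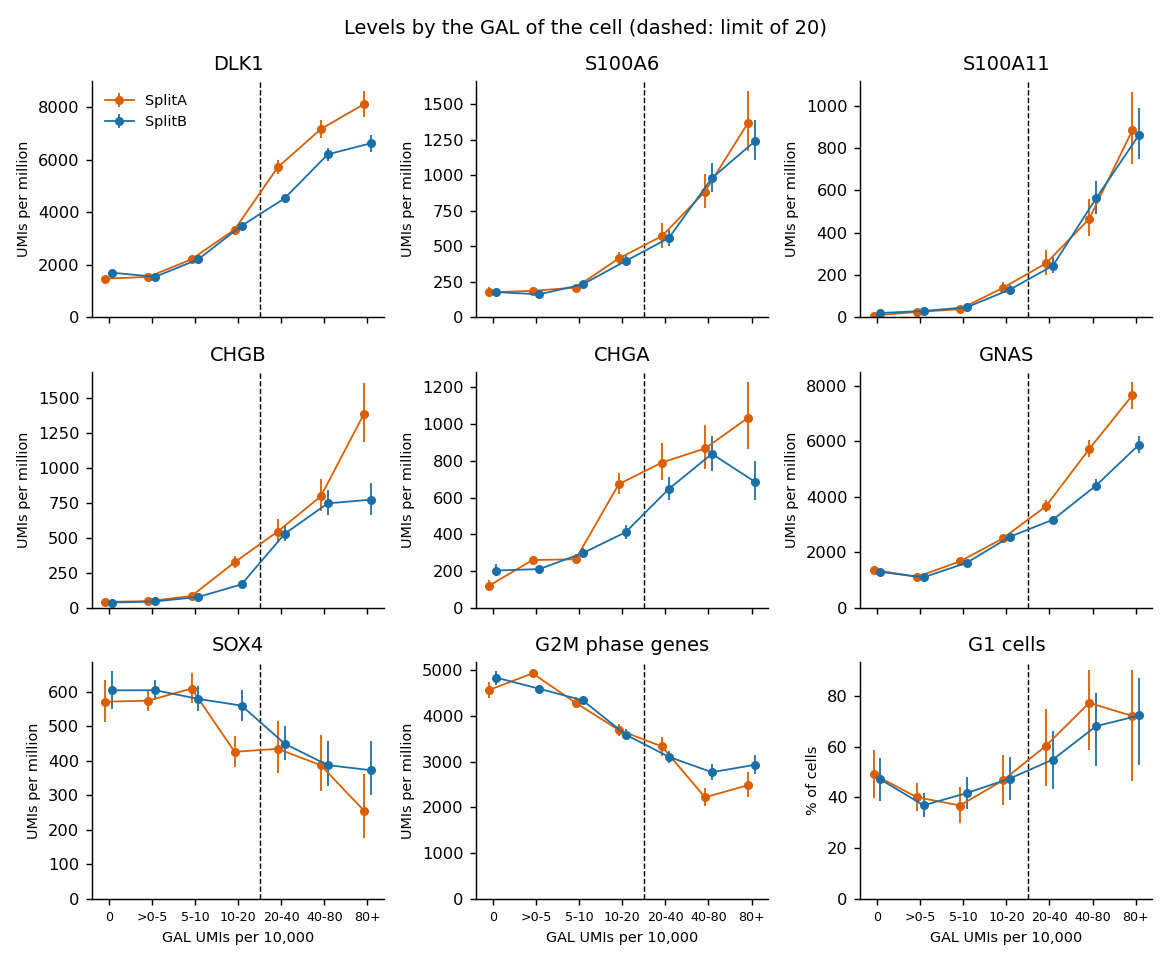
CPM, or percent of cells in G1, (y axes) in 7 bins of GAL UMIs per 10,000 (x axes) in SplitA and SplitB, with exact 95% Poisson or binomial intervals and a dashed line at the limit of 20. S100A11 and CHGB climb in every step in both flasks, DLK1, S100A6 and GNAS climb from the second bin on, and SOX4 and the sum of G2 and M genes are lower in the highest bins than in the lowest.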

How the data were processed

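The deposited table holds UMI counts per gene and cell (33538 genes, 2879 barcodes) with 2 hashtag rows; per the submitters' notes the authors used STAR 2.7 and Cell Ranger 4.0.0 on GRCh38. Kept cells had 1 hashtag at least 3 times the other, the other at most 185, at least 1000 genes and 13 mitochondrial genes under 15% of UMIs. Between-flask multiplets (95) were left out. Members and lists were chosen with earlier results of these data known. UMIs were summed per flask and class, GAL removed, and tested with edgeR 4.0.16 (quasi-likelihood, TMM, filterByExpr, flask as block, Benjamini-Hochberg 0.05). The same fit was also run on simulated counts drawn from these sums. DESeq2 1.42.0 and limma-voom 3.58.1 were alternatives, the latter added after the data were seen. Levels are counts (UMIs) per 1000000 (CPM) without GAL. Cell cycle phases came from Seurat 5.3.0 after thinning to 2000 UMIs. Named genes were the 20 highest and 12 lowest called genes with 100 UMIs, those with the most UMIs or largest change in each list, and all tested granin, adrenergic and S100 genes. Coordinates are GENCODE 44, promoters RefSeq. Leaving out a flask gives values only. A gene withheld from the text is not reported here.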

Additional observations from a re-analysis of the deposited data

Results flagged for a closer look

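Galanin-high cells also occurred among barcodes that the comparisons did not use, and were flagged for that. Of 62 multiplets that passed the other filters, 6 were galanin-high, 9.68% (exact 95% interval 3.63 to 19.9%). Of 807 cells assigned to a flask with 15% or more mitochondrial UMIs, 28 were galanin-high, 3.47% (2.32 to 4.98%), at a median of 1618 UMIs a cell. Of 57 cells with fewer than 1000 genes alone, 9 were galanin-high, 15.8% (7.48 to 27.9%), at a median of 1123 UMIs, where the limit of 20 per 10,000 is met by very few GAL UMIs.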

How the results depend on the processing

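The values rest on 2 flasks of 1 culture in 1 library, on cells without a doublet call within a flask, and on UMI sums as small as 679675. Genes with 1 to 7 UMIs in a sum have wide intervals whatever their adjusted p. With members chosen on 50% of each cell's UMIs and tested on the rest, 396 genes were higher and 397 lower, with other cells matched on UMIs 455 and 391, among G1 cells 331 and 363, and with DESeq2 129 and 118. Each of these settings except DESeq2 tests fewer UMIs or cells. Without the flask as a block the counts were 700 and 644. Other planned settings, and limma-voom, added after the data were seen, kept both counts within 1.5 times. Galanin-high cells made up 24.0% of SplitA and 26.8% of SplitB at a limit of 10, 5.91% and 6.69% at 40, and 15.1% and 17.1% with 4 GAL UMIs of 2000. Genes at least 1.5-fold higher in both flasks numbered 527 with matched cells and 1964 with no filter on low counts, and 1727 to 1986 in 1 flask alone. Genes 1.5-fold lower numbered 162 at a limit of 10, 851 at 40, 259 with members chosen after thinning, 198 among G1 cells and 1645 with no filter, and 1013 to 1782 in 1 flask alone.

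The medians of the granin, adrenergic, catecholamine, S100 (S100A6 included) and S phase lists kept their sign under each setting, and that of the G2 and M genes turned to 0.038 among G1 cells, a choice that the phase call fixes. Other list medians that changed sign were those of neuropeptides (-0.07 at a limit of 10), mesenchymal genes (-0.03 on 50% of the UMIs), Notch genes (0.0036 at a limit of 10, 0.08 with no filter, 0.02 in SplitB alone), cAMP response (-0.04 among G1 cells), p53 targets (-0.03 with matched cells, -0.15 in SplitA alone), metallothioneins (-0.13 among G1 cells, -0.999 with no filter), cholesterol synthesis (0.01 among G1 cells), and tubulin and actin (0.02) and mitochondrial genes (0.03), both without TMM factors. At a limit of 10, the medians were 0.48 for granins and processing, 0.66 for catecholamine genes, 1.07 for S100 and annexin genes and -0.59 for G2 and M genes. At 40 they were 0.51 for granins, -0.36 for adrenergic factors, 0.85 for catecholamine genes, -0.66 for S phase and -1.03 for G2 and M genes. With members chosen after thinning they were 0.52 for granins, 0.73 for catecholamine, 1.10 for S100 and -0.57 for G2 and M genes. On 50% of the UMIs they were 0.58 for catecholamine and 1.05 for S100 genes. With matched cells they were 0.51 for granins, 0.76 for catecholamine and 1.56 for S100 genes. Among G1 cells they were 0.66 for catecholamine and -0.11 for S phase genes, which the phase call uses. Without cells above the 95th percentile they were 0.76 for catecholamine and -0.97 for G2 and M genes. With no filter they were -0.31 for adrenergic, 0.73 for catecholamine and 0.97 for S100 genes, and without TMM factors -0.15 for adrenergic and 0.98 for catecholamine genes. The catecholamine median, whose flasks differ by very little, was also 0.76 with mitochondrial UMIs out of the rule, 0.93 with a hashtag limit of 100, 0.88 with 1500 genes a cell, 0.84 with a mitochondrial limit of 10%, 0.88 without the block and 0.69 with DESeq2. With 1 flask left out the medians ranged from 0.52 to 0.70 for granins, -0.32 to -0.23 for adrenergic, 0.77 to 0.80 for catecholamine, 1.13 to 1.31 for S100, -0.57 to -0.31 for S phase and -0.84 to -0.71 for G2 and M genes.

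The difference in G1 share was 15.5 points at a limit of 10, 30.2 at 40, 16.5 with members chosen after thinning and 29.1 with matched cells, and 20.8 to 26.8 with 1 flask left out. The ratio of UMIs was 1.01 without cells above the 95th percentile. Of 106 named genes called, DLK1 and S100A6 among them, DESeq2 called 46 in the same direction and gave 40 no adjusted p. With matched cells 83 of 98 tested were called in the same direction, on 50% of the UMIs 77 of 100 and among G1 cells 65 of 95. GDF15, a p53 target on 66 UMIs, turned to -0.16 with DESeq2 and to -5.80 in SplitA alone, where galanin-high cells had no UMI of it, against 2.08 in SplitB alone.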

Other observations

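A few genes from a list of endoplasmic reticulum chaperones and secretory stress genes were called, most of them higher. Of 22 listed, 20 could be tested, 5 rose and 1 fell, with a median log2 fold change of 0.28. Of all genes tested, 6.43% were higher and 5.95% lower. Of the 5, DESeq2 called 1, edgeR 2 with cells chosen on 50% of their UMIs, and 3 each among G1 cells and with matched cells. CRELD2, a chaperone of the secretory pathway, stood at 83.9 against 31.5 CPM in SplitA and 71.7 against 35.0 in SplitB (log2 fold change 1.10, adjusted p = 2.58e-10 by edgeR). ASNS, asparagine synthetase, fell by 1.60 on the log2 scale, a call lost with matched cells (adjusted p = 0.0708) and with cells chosen on 50% of their UMIs (adjusted p = 0.258). DESeq2, and edgeR among G1 cells, called 0 genes of the list lower. Of 14 immediate early genes tested, 2 rose (EGR1 by 0.76 and NR4A1 by 0.85) and 1 fell, and limma-voom made the same calls. DESeq2 called 0 of them, with 1 higher at an unadjusted p under 0.05, as did edgeR among G1 cells and with cells chosen on 50% of their UMIs, with 3 higher at that p in each. Of 15 genes of the cAMP and calcium response tested, 2 rose and 1 fell, with a median of 0.07. DESeq2, and edgeR with matched cells or on 50% of the UMIs, called 1 of the 2 higher and the same 1 lower, and edgeR among G1 cells called only the 1 lower.

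Genes of neuronal differentiation were called in both directions. Of 26 tested, 4 rose and 3 fell, with a median of -0.14. DCX, doublecortin, rose by 1.10 and PRPH, peripherin, by 1.65 on the log2 scale, while STMN2, with the most UMIs of the list, had a log2 fold change of -0.07 (adjusted p = 0.507). The genes that fell, named after their values were seen, were GAP43 by 1.07, STMN4 by 0.99 and ELAVL4 by 0.67 on the log2 scale. DESeq2, and edgeR with matched cells or among G1 cells, called 0 of this list higher, with 3 higher at an unadjusted p under 0.05 in each, so the 4 calls were not found again there. Every call of the list was lower in these 3 fits, with 2 lower by DESeq2, 3 with matched cells and 5 among G1 cells. With cells chosen on a random part of their UMIs and tested on the rest, edgeR again called 2 of the 4 higher. That fit tested 24 genes of the list and called the same 3 lower. The same 4 higher and 3 lower were called by limma-voom, and by edgeR without TMM factors. Over all genes tested 6.43% were higher and 5.95% lower. Of the other lists, hypoxia genes gave 4 higher and 1 lower of 19, p53 targets 3 higher and 0 lower of 15, Notch genes 1 and 1 of 9, heat shock proteins 1 and 2 of 12, metallothioneins 1 and 0 of 4, cholesterol synthesis 0 and 1 of 16, and tubulins and actin genes 2 and 2 of 11. Of these, DESeq2 called 1 hypoxia gene, 1 p53 target and 1 heat shock protein higher, 2 tubulin and actin genes lower and 0 of the Notch, metallothionein and cholesterol genes, none of which had an unadjusted p under 0.05 there, while limma-voom called 1 and 1, 1 and 0, and 0 and 1 of these 3 lists.

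Cytosolic ribosomal protein genes, whose reads can be shared with many processed copies, were lower by a small amount: 74 of 82 tested fell and 2 rose, with a median log2 fold change of -0.22. They took 341282 CPM in galanin-high and 377968 in other cells of SplitA, and 341255 and 379818 in SplitB. Of 13 mitochondrial genes, 1 rose and 4 fell, MT-ND1 by 0.52 on the log2 scale, while their sum was 86277 against 86618 CPM in SplitA and 87771 against 86970 in SplitB. Without TMM factors 2 of the 13 were called higher and 1 lower, with DESeq2 1 and 1, and with limma-voom 2 and 5.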
